A study of Mus musculus with 2 samples.

Results

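The genes of cholesterol synthesis, uptake and efflux were examined in white adipose tissue of obese mice given vehicle or entacapone. The set holds 29 genes, chosen by name for their role in sterol metabolism, among 37315 genes listed in the count files. It covers 18 enzymes of synthesis, 4 genes of the SREBP2 control system, 4 genes of sterol transport and esterification, and 3 genes of exchange with lipoproteins. The enzymes in the set do not cover every step of synthesis. All 29 genes were protein-coding. Levels are given as CPM (read counts scaled to the size of the library), and all 29 passed the minimum for a comparison, a mean of 1 CPM over the libraries, as did 13361 genes in all. Both groups were C57BL/6 males, 23 weeks old, made obese by a high-fat diet, and the series title gives the depot as inguinal. One group received vehicle and the other entacapone, a drug of Parkinson disease that also inhibits the RNA demethylase FTO; each was sequenced as 1 library.

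Since each group holds 1 library, replicate error cannot be given. Each ratio below (entacapone over vehicle) has an exact 95% interval that covers counting error only, and each difference is one between these 2 libraries. It cannot be told apart from differences between mice, dissections or library preparations. "Beyond counting error" means that the interval excludes a ratio of 1. In such bulk tissue, fewer cells of a type and less RNA per cell cannot be told apart.

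Cells make cholesterol from acetyl-CoA by way of mevalonate, farnesyl pyrophosphate, squalene and lanosterol. When sterols in the endoplasmic reticulum are low, SCAP escorts the transcription factor SREBP2 to the Golgi, where it is cut and released to activate the synthesis genes; INSIG proteins hold SCAP back when sterols are plentiful. Fat cells make little cholesterol themselves but store a large pool of free cholesterol, and they release it through transporters such as ABCA1.

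The promoters of synthesis genes are known for sterol regulatory elements, which bind SREBPs, beside boxes for the cofactor NF-Y. RefSeq promoter windows (GRCm38.p6, 250 bases before to 50 after a start site) were matched by symbol for 22 of the 29 genes. The 4 stretches below are shown because their genes were among the 5 lowest members and have a single RefSeq start. Dhcr7, the other of these 5, has 3 start sites and is not shown; CCAAT was found in only 1 of its 3 windows and TCACNCCAC in none. Each gives 200 bases upstream of both the RefSeq and the GENCODE start, 5′ to 3′ on the gene's strand, and capitals mark the motifs TCACNCCAC (sterol regulatory element) and CCAAT (NF-Y box) on either strand.
Hmgcs1 (chr13:119690151-119690350, plus strand): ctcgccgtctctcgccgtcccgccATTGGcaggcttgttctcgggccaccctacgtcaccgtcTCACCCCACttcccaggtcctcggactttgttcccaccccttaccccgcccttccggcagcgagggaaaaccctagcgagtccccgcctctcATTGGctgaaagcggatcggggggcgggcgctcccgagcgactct
Insig1 (chr5:28071163-28071362, plus strand): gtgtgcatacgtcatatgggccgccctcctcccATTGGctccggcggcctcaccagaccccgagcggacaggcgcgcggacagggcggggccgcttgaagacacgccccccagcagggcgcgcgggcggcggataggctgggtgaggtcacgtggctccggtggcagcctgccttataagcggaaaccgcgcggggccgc
Sc5d (chr9:42264301-42264500, minus strand): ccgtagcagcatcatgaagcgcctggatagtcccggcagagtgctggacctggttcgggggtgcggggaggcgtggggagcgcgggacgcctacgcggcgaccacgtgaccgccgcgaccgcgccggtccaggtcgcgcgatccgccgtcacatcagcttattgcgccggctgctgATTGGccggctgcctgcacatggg
Lss (chr10:76531388-76531587, plus strand): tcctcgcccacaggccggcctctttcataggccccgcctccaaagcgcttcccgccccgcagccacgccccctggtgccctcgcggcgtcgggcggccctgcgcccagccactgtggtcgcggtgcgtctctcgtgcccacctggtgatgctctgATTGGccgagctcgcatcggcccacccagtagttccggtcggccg
The Hmgcs1 stretch held the only match to TCACNCCAC among the 22 genes with a window, at bases -137 to -129 from the RefSeq start. The other 7 genes were not searched. This motif was found in 1 of 22 member genes and in 1.44% of 27025 genes with a window, all in windows of the same length. CCAAT was present in 19 of the 22 genes (86.4%, against 41.1% of all genes) and the GC box GGGCGG in 21 (95.5%, against 38.2%). The 27025 genes were not limited to protein-coding or compared genes, as the members all are, so these shares are of unlike sets. Idi1, which was higher in the entacapone library, also had CCAAT matches, at -45 to -41 and -14 to -10 from its RefSeq start. The GENCODE start of Idi1 is further upstream, so these bases lie within its GENCODE span. These matches describe letters in the window and are not binding data.

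In the entacapone library 13 of the 29 genes (44.8%) were lower and 5 (17.2%) were higher beyond counting error; of all compared genes 21.1% were lower and 20.2% higher. The difference reached 1.5-fold for 5 lower genes (17.2%, against 7.9% of compared genes), namely Insig1, Hmgcs1, Dhcr7, Sc5d and Lss, and for 1 higher gene, Idi1 (3.45%, against 4.16%). At least 2-fold lower were Insig1 and Hmgcs1 (6.9%, against 3.5%), and no member was 2-fold higher (against 1.66%). Since the members had at least 110 reads in each library, a subset closer in depth is given as well. Among the 10762 genes above a mean of 5 CPM, 22.3% were lower and 23.0% higher; 5.97% were at least 1.5-fold lower and 3.11% as much higher, and 1.77% were at least 2-fold lower and 0.781% as much higher. The median log2 ratio of the 29 was -0.13 (pseudocount 0.5 CPM), and that of all compared genes was 0.00.

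**Figure D1:**
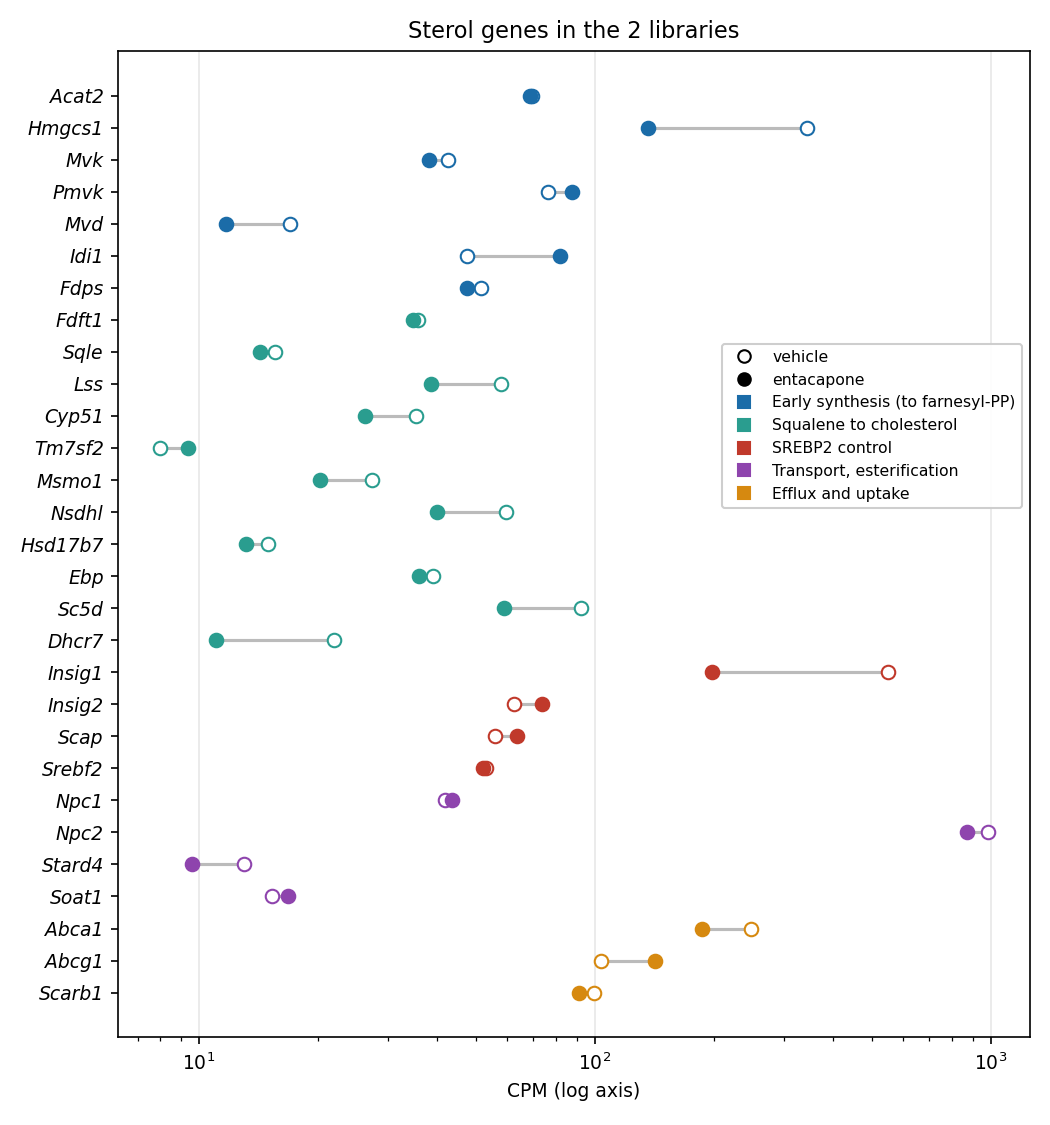
CPM (log axis) of each of the 29 genes in the vehicle library (open points) and the entacapone library (filled points), 1 library per point, coloured by role. The widest gaps are those of Insig1 (550 against 197 CPM) and Hmgcs1 (343 against 136 CPM), and Idi1 lies the other way (47.5 against 81.8 CPM).

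In the first part of the pathway, from acetyl-CoA to farnesyl pyrophosphate, 4 of the 7 members exceeded counting error. Of these, 2 were lower (Hmgcs1, Mvd) and 2 higher (Pmvk, Idi1). That is 28.6% in each direction, near the 21.1% and 20.2% of all compared genes. Hmgcs1 (chromosome 13, 119690379 to 119708260, GRCm38), which encodes the cytosolic HMG-CoA synthase at the entry to the mevalonate route, had 4732 vehicle and 1739 entacapone reads, or 343 and 136 CPM. It was therefore 2.52-fold lower in the entacapone library (log2 -1.33, -1.41 to -1.25). Acat2, the thiolase one step earlier, was nearly level, with 69.5 (vehicle) and 68.7 CPM (entacapone; log2 -0.02, -0.15 to 0.12). The step before HMG-CoA synthase thus showed no difference beyond counting error.

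Among the kinases and the decarboxylase that turn mevalonate into isopentenyl pyrophosphate, Mvk (mevalonate kinase) was at 42.5 against 38.1 CPM in vehicle and entacapone (log2 -0.16, -0.34 to 0.02). Pmvk, the next kinase, was slightly higher with entacapone at 76.4 against 87.6 CPM (log2 0.20, 0.08 to 0.32). Mvd, the decarboxylase, had 234 vehicle and 150 entacapone reads and was 1.45-fold lower (log2 -0.53, -0.84 to -0.23). Of these 3 consecutive steps, 1 was within counting error, 1 was higher and 1 was lower.

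Idi1 (chromosome 13, 8885501 to 8892451), which interconverts the isoprene building blocks, had 656 vehicle and 1047 entacapone reads, or 47.5 and 81.8 CPM. It was 1.72-fold higher in the entacapone library (log2 0.78, 0.64 to 0.93), and 3.08% of compared genes had a ratio as high or higher. Fdps, farnesyl pyrophosphate synthase, did not differ beyond counting error (51.5 against 47.7 CPM; log2 -0.11, -0.27 to 0.05). Per kilobase of exon, Hmgcs1 was 5.50 times as abundant as Idi1 in the vehicle library and 1.27 times in the entacapone library.

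In the second part, from squalene to cholesterol, counting error was exceeded by 6 of 11 genes, all of them lower (54.5%, against 21.1% of compared genes lower and 20.2% higher), and the median log2 ratio was -0.42. The first enzymes, Fdft1 (squalene synthase, log2 -0.04, -0.23 to 0.15) and Sqle (squalene epoxidase, -0.12, -0.41 to 0.17), were within counting error. Sqle was also one of the less abundant members, with 215 vehicle and 183 entacapone reads. The lower genes all lay after squalene epoxide.

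Lss, lanosterol synthase, which closes the sterol ring, was lower at 57.8 against 38.5 CPM (log2 -0.59, -0.75 to -0.42). Cyp51, which removes a methyl group from lanosterol, was at 35.3 against 26.3 CPM (log2 -0.43, -0.63 to -0.22). Msmo1 (log2 -0.44, -0.67 to -0.21) and Nsdhl (-0.57, -0.74 to -0.41), which act together in removing the remaining extra methyl groups, were also lower. Nsdhl, at 1.49-fold, was just outside the 1.5-fold limit and Lss just inside it. The third enzyme of that demethylation, Hsd17b7, was within counting error on 206 and 168 reads (log2 -0.18, -0.49 to 0.12).

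The last steps held the strongest differences of the sterol ring enzymes. Dhcr7 (chromosome 7, 143823145 to 143848410), the reductase that makes cholesterol from its immediate precursor, had 303 vehicle and 141 entacapone reads. It was 1.99-fold lower with entacapone (log2 -0.99, -1.29 to -0.70). Sc5d (chromosome 9, 42251595 to 42264256), the desaturase just before it, was at 92.3 against 58.8 CPM and 1.57-fold lower (log2 -0.65, -0.78 to -0.52). Ebp, the sterol isomerase upstream of both, was within counting error (log2 -0.12, -0.30 to 0.06), as was Tm7sf2, a sterol reductase, which had the fewest reads (110 and 120; log2 0.24, -0.15 to 0.62).

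Summed over the 18 synthesis genes, the vehicle library held 1055 CPM and the entacapone library 774 CPM, a 1.36-fold difference. Without Hmgcs1 the sums were 712 and 638 CPM (1.12-fold, log2 -0.16, -0.20 to -0.12). Hmgcs1 alone, lower by 207 CPM, therefore made up most of the summed difference of 281 CPM. The median log2 ratio of the 18 was -0.17, and -0.16 without Hmgcs1.

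**Figure D2:**
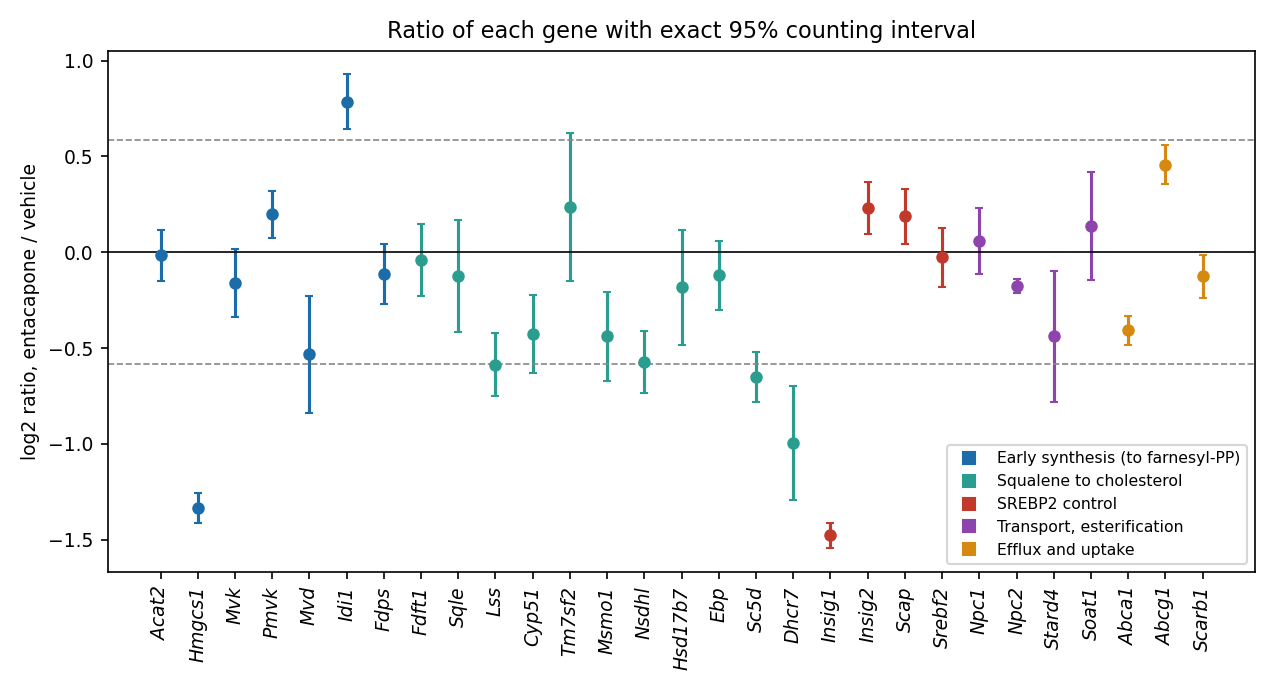
Log2 ratio (entacapone over vehicle) of the 29 genes in pathway order with exact 95% counting intervals as bars; the dashed lines mark 1.5-fold. Insig1 (-1.48) and Hmgcs1 (-1.33) lie apart from the other lower genes, of which Dhcr7 (-0.99) is next, and Idi1 (0.78) is the 1 gene above the upper line.

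In the control system, Insig1 was lower and its partners were not. Insig1 (chromosome 5, 28071363 to 28078662), the sterol-regulated retention protein that is itself an SREBP target, had 7592 vehicle and 2525 entacapone reads. It was 2.79-fold lower in the entacapone library (550 against 197 CPM; log2 -1.48, -1.54 to -1.41), the lowest ratio of the 29. Among all 13361 compared genes it ranked 178 from the lowest ratio and 27 by loss of CPM. Its paralog Insig2, which is not driven by SREBPs in the same way, was higher at 62.5 against 73.4 CPM (log2 0.23, 0.10 to 0.37).

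Per kilobase of exon, Insig1 was 9.88 times as abundant as Insig2 in the vehicle library and 3.02 times in the entacapone library. Scap, the escort protein that INSIGs bind, was at 55.8 against 63.6 CPM (log2 0.19, 0.04 to 0.33). Srebf2, which encodes SREBP2, was level to within its interval (53.1 against 52.2 CPM; log2 -0.03, -0.18 to 0.13). The transcript of the transcription factor thus differed less than those of several of its known targets.

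Of the 4 genes of sterol movement and storage inside the cell, 2 (Npc2 and Stard4) were lower beyond counting error and none was higher, against 21.1% and 20.2% of compared genes. Npc2, the soluble lysosomal cholesterol carrier, was the most abundant member at 986 against 871 CPM (log2 -0.18, -0.21 to -0.14). Npc1, the lysosomal membrane protein that receives cholesterol from it, was at 41.8 against 43.5 CPM (log2 0.06, -0.11 to 0.23). Stard4, a cytosolic sterol carrier and SREBP2 target, was lower on 180 and 123 reads (1.36-fold, log2 -0.44, -0.78 to -0.10). Soat1, which esterifies cholesterol for storage, was within counting error (15.3 against 16.8 CPM; log2 0.14, -0.14 to 0.42).

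The transporters of the cell surface went opposite ways. Abca1, which loads cholesterol onto lipid-poor apolipoprotein, had 3424 vehicle and 2392 entacapone reads and was 1.33-fold lower (248 against 187 CPM; log2 -0.41, -0.48 to -0.33). Abcg1, which passes cholesterol to mature HDL particles, had 1430 and 1818 reads and was 1.37-fold higher (104 against 142 CPM; log2 0.46, 0.36 to 0.56). Both genes are known targets of the liver X receptors (LXR). Per kilobase, Abca1 exceeded Abcg1 1.69-fold in the vehicle library, and was at 0.927 of its level in the entacapone library. Scarb1, the HDL receptor for uptake of cholesteryl esters, was slightly lower (99.6 against 91.3 CPM; log2 -0.13, -0.24 to -0.01).

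By level per length, Npc2 (181 RPKM, that is CPM per kilobase of exon) and Insig1 (178 RPKM) led the vehicle library. In the entacapone library Npc2 remained at 160 RPKM and Insig1 stood at 63.8 RPKM. Soat1 was the lowest member in both, at 1.56 and 1.72 RPKM, with Stard4 at the same level in the entacapone library. The 29 together took 0.328% of the vehicle and 0.252% of the entacapone library. Without Insig1 and Hmgcs1 the remaining 27 took 0.239% and 0.219%.

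**Figure D3:**
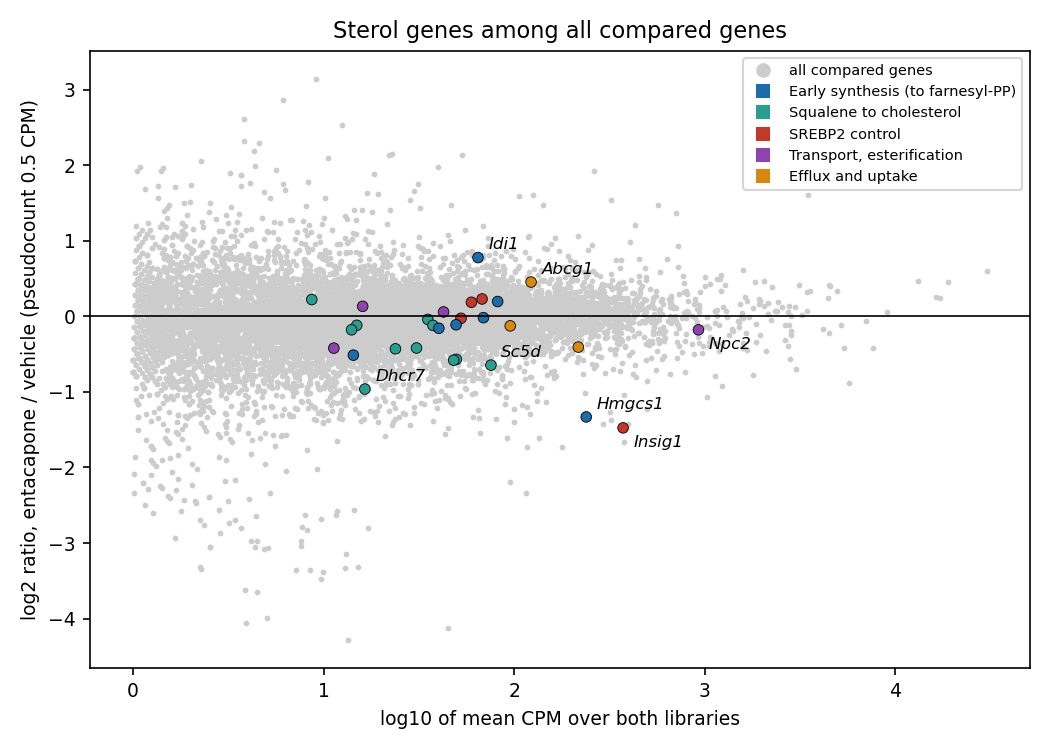
Log2 ratio (entacapone over vehicle, pseudocount 0.5 CPM) against log10 of mean CPM for the 13361 compared genes in grey and the 29 sterol genes in colour. Insig1 and Hmgcs1 lie at the lower edge of the cloud for genes of their abundance, whereas most members lie within it.

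Of 36 further genes of sterol metabolism outside the set, 33 were compared; 11 were lower (33.3%, against 21.1%) and 8 higher (24.2%, against 20.2%) beyond counting error. Of these, 3 were at least 1.5-fold lower (9.09%, against 7.9% of compared genes) and none as much higher. The median log2 ratio of the 33 was -0.08. The lowest were Abcg4, a sterol transporter on only 30 and 13 reads (log2 -1.10, -2.16 to -0.11), and Nceh1, a hydrolase of stored cholesteryl esters (13.4 against 6.95 CPM; -0.95, -1.33 to -0.57). Lipa, the lysosomal lipase that frees cholesterol from esters taken up with lipoproteins, was 1.56-fold lower (111 against 71.6 CPM; log2 -0.64, -0.76 to -0.52). The highest were Pdss1, of ubiquinone side-chain synthesis (0.44, -0.03 to 0.91), and Erlin1, which takes part in the breakdown of sterol-sensing proteins (0.33, 0.13 to 0.54). Of the LXR genes themselves, Nr1h3 was within counting error at -0.02 (-0.12 to 0.08) and Nr1h2 was slightly higher at 0.15 (0.02 to 0.27).

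Of 18 genes of fatty acid synthesis that SREBP1 is known to drive or accompany, counting error was exceeded by 16, of which 9 were lower (against 21.1% of compared genes) and 7 higher (38.9% of the list, against 20.2%); the median log2 ratio was -0.11. Srebf1 was 1.65-fold lower (448 against 271 CPM) and Scd2 1.53-fold lower, while Fads1 was 1.69-fold and Scd1 1.51-fold higher; these 2 in each direction are 11.1% of the list, against 7.9% lower and 4.16% higher of compared genes. Srebf1 and Srebf2 thus differed from each other, with intervals that did not overlap (-0.78 to -0.66 and -0.18 to 0.13).

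The tissue label was met by its markers: all 14 adipocyte genes were compared, and together they took 4.65% of the vehicle and 4.86% of the entacapone library. This near-level sum hides differences in both directions. Of the 14, 7 were higher and 6 lower beyond counting error, against 20.2% and 21.1% of compared genes. At least 1.5-fold higher were 2 of them (14.3%, against 4.16%), and none was as much lower (against 7.9%). Markers of other cell types also differed between the libraries, some lower and some higher. Of 18 macrophage markers, 16 were lower beyond counting error (88.9%, against 21.1% of compared genes), and their sum was 2429 against 1336 CPM. Macrophages also express Abca1, Npc2, Lipa and Nceh1, which were lower. They express as well Abcg1, which was higher (log2 0.46), and Npc1 and Soat1, which were within counting error. All 13 compared hepatocyte markers of 16 were at least 2-fold lower (against 3.5% of compared genes), with a sum of 416 against 86.5 CPM. Liver is a main site of cholesterol synthesis. Alb, the most abundant of the hepatocyte markers, had 2813 and 853 reads.

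Skeletal muscle markers were higher beyond counting error in 12 of 13 compared (92.3%, against 20.2% of compared genes). Their sum was 1500 against 2285 CPM for the 14 listed. Of 13 compared keratinocyte and sebaceous markers, 10 were higher (76.9%, against 20.2%) and 1 was lower (7.69%, against 21.1%). Their sum was 731 against 1069 CPM for the 14 listed, and sebaceous glands also make sterols. Most of this sum was 1 gene, Mgst1, with 602 (vehicle) and 704 CPM (entacapone). The lower marker was Elovl3, on 22 vehicle and 6 entacapone reads. None of the markers of macrophages, hepatocytes or keratinocytes was at 0 reads in either library. The muscle gene Tnnc2 was at 0 in both, although the other 13 muscle markers were compared. Whether this 0 reflects an absent transcript or the counting of reads was not tested. The part of these cell types in the sterol gene differences was not tested.

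**Figure D4:**
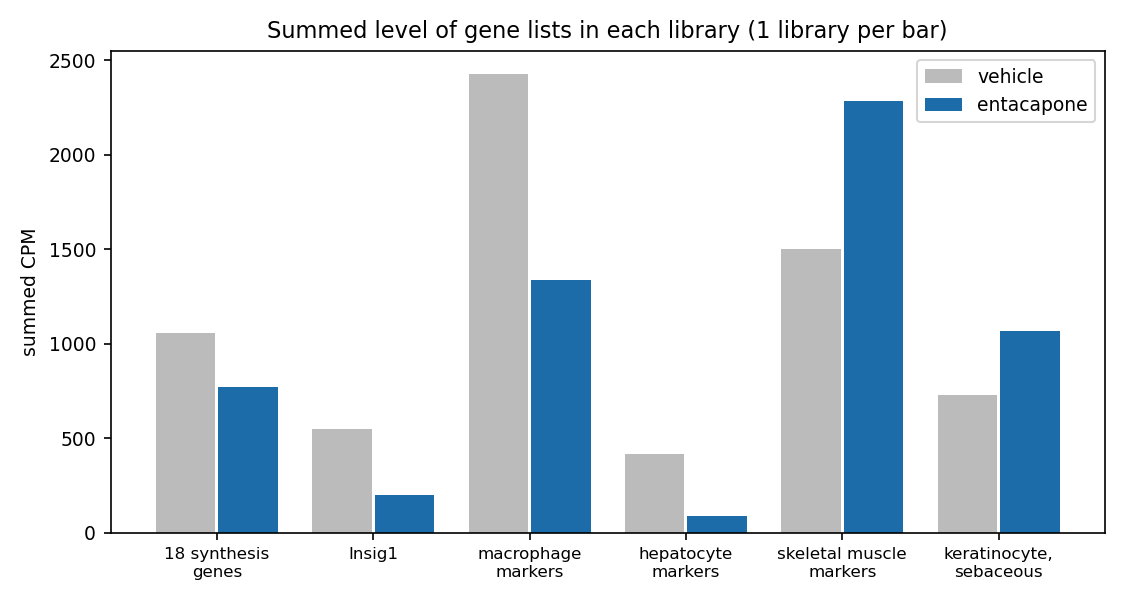
Summed CPM of the 18 synthesis genes, of Insig1 and of 4 marker lists in the vehicle (grey) and entacapone (blue) library, 1 library per bar and so without error bars. Synthesis genes (1055 against 774), Insig1 (550 against 197), macrophage markers (2429 against 1336) and hepatocyte markers (416 against 86.5) were lower with entacapone, and the sums of muscle and of keratinocyte and sebaceous markers were higher. Mgst1 alone held 602 CPM (vehicle) and 704 CPM (entacapone) of the keratinocyte and sebaceous sums.

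Overlaps with another counted gene limit the reading of 6 genes. Exons of Fdft1, Cyp51, Npc1, Lss and Scap overlap a gene on the opposite strand that is also counted, and those of Tm7sf2 overlap Vps51 on the same strand. For Fdft1 the partner is Ctsb, a lysosomal protease with 40589 and 30295 reads. The partner of Lss had only 1 and 0 reads, and that of Scap 5 and 3. Exons of Hmgcs1, Idi1 and Fdps overlap genes that are not among those counted. For Hmgcs1 (557 bases) and Idi1 (323 bases) these lie on the opposite strand, and for Fdps (1124 bases) on the same strand. Whether reads of those uncounted genes were assigned to the members was not tested. The library kit does not mark strand, and how shared reads were assigned is not stated in the labels. Without the 6 genes that overlap a counted gene, 11 of the other 23 were lower and 4 higher beyond counting error. Of all compared genes, 21.1% and 20.2% were.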

How the data were processed

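Poly(A)-selected RNA was sequenced on an Illumina HiSeq instrument after TruSeq v2 preparation, per the labels' protocols. The files deposited by the authors hold unnormalized counts of reads for each Ensembl gene; the submitters' processing notes name TopHat2 2.1.1, HTSeq 0.6.0 and mm10. How ambiguous reads were handled, and which annotation was used, is not given in the sources used. The vehicle library held 13620056 counts and the entacapone library 12979673. CPM used TMM effective library sizes (edgeR 4.0.16, factors 1.01 and 0.986).

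Symbols, positions and union exon lengths came from GENCODE M21 (GRCm38, the assembly of mm10), which matched 35449 of 37315 genes; lengths include retained introns of minor transcripts, so RPKM is approximate. Ratio intervals were derived from Clopper-Pearson intervals (scipy 1.17.1) of the fraction of each gene's reads found in the entacapone library. The code was run on simulated counts that held counting error only. That run cannot show how the intervals cover variation between libraries. At 100 reads per library the intervals reach 1.33-fold. Reads carry no molecular identifiers. No significance test was possible with 1 library per group.

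The members, gene lists and limits were chosen with earlier results of these data known. All members were described; from the other sterol and lipogenic lists, genes at least 1.5-fold apart beyond counting error and the 2 highest and 2 lowest were named, plus Nr1h2, Nr1h3 and Tnnc2, chosen after their values were seen. From each marker list the same rule allowed the most abundant and most extreme genes, of which only Alb, Mgst1 and Elovl3 are printed. Results were recomputed with size factors of DESeq2 1.42.0, total counts, upper-quartile scaling, other expression minimums, a 99% interval, thinning, a length trend, other pseudocounts, the mean, and a 2-fold limit.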

Additional observations from a re-analysis of the deposited data

How the results depend on the processing

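Under DESeq2, total-count and upper-quartile scaling, other expression filters, thinning and removal of the length trend, 12 to 14 members were lower and 5 higher beyond counting error, and 4 to 6 were at least 1.5-fold lower. A 99% interval left 11 lower and 4 higher. Lss (-0.57 with upper-quartile scaling) and Nsdhl (-0.59 with DESeq2 size factors) crossed the 1.5-fold limit; Mvk, Scarb1, Stard4 and Scap crossed the limit of counting error under at least 1 of these settings. With a limit of 2-fold, 2 members were lower and 0 higher. With the mean in place of the median, the log2 ratio was -0.23 for the 29 genes and -0.28 for the 18 synthesis genes, by construction more exposed to Insig1 and Hmgcs1. In a scaling to adipocyte marker reads, added after the data were seen, 16 members were lower, 4 higher and 7 at least 1.5-fold lower; there Ebp, Fdps and Mvk passed and Scap lost the limit of counting error, and Mvd (-0.59) and Nsdhl (-0.64) passed 1.5-fold. No member changed direction beyond counting error under any of these settings. No paired analysis was possible because each group has 1 library. Depth limits Tm7sf2, Stard4, Dhcr7, Sqle, Soat1, Hsd17b7 and Mvd most, each on at most 303 reads per library.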

Other observations

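Paralogs of the synthesis enzymes that are not among the 29 genes also differed between the libraries; they were chosen after their values were seen. Idi2 (chromosome 13, 8952863 to 8960945), the isopentenyl isomerase paralog near Idi1, had 10 vehicle and 89 entacapone reads and was 9.61-fold higher in the entacapone library (4.99 to 20.7), in the same direction as Idi1. Skeletal muscle markers were higher in that library too, with a sum of 1500 against 2285 CPM, and their part in the Idi2 value was not tested. Acat3, a close copy of Acat2, had only 13 and 25 reads, and reads that fit both copies cannot be assigned with certainty. Ebpl, a paralog of Ebp, went the other way. It was lower in the entacapone library on 339 vehicle and 252 entacapone reads (log2 -0.32, -0.56 to -0.08).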
